A study of Arabidopsis thaliana with 12 samples.

Results

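A small group of genes gave array signals near the bottom of the scale in wild-type siliques and in 2 other dormancy mutants, and clear signals in the *hub1-2* mutant. These genes were chosen by their measured values: a probe set, the group of short probes that reports 1 transcript, belongs to the group where its intensity was under 12 in all 9 arrays of *rdo2-1*, *rdo3* and L*er* and over 24 in all 3 arrays of *hub1-2*. Of 22746 probe sets without controls, 4 met both bounds, and each of them is matched to 1 gene: *AT1G68240*, *AGAL1* (*AT5G08380*), *AT1G01920* and *ALDH3F1* (*AT4G36250*). All values compared between *hub1-2* and the other genotypes for these 4 genes are therefore descriptions of the choice and carry no test.

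The samples were nearly ripe siliques, the seed pods of *Arabidopsis thaliana* with the maturing seeds inside, taken 18 to 19 days after pollination, with 3 arrays per genotype and 1 RNA sample per array. The genotypes were *hub1-2* (labelled *rdo4*, its older name), *rdo2-1* (labelled *rdo2*), *rdo3* and wild type, all in the Landsberg *erecta* (L*er*) background. In *rdo2-1* a short deletion removes the end of the TFIIS protein, and for *rdo3* the sources used here name no gene. The study states that replicates were biologically independent, and each mutant is 1 line.

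HUB1 is an E3 ubiquitin ligase that attaches a single ubiquitin to histone H2B, a mark laid down on transcribed genes that helps RNA polymerase II to start and to elongate. TFIIS, the protein shortened in *rdo2-1*, acts in the same general process by rescuing stalled polymerase. Seeds of both mutants are less dormant, which means that they germinate with less dry storage after harvest. HUB1 is required for H2B monoubiquitination, which was not measured here. The comparison asks which transcripts differ in level between *hub1-2* and the other genotypes at the end of seed maturation. Of the 4 genes, *AGAL1* is annotated as an alpha-galactosidase, an enzyme that takes galactose off sugars and cell-wall polymers. *ALDH3F1* is an aldehyde dehydrogenase, an enzyme that oxidizes aldehydes to carboxylic acids. For the remaining 2, *AT1G68240* and *AT1G01920*, the sources used here give a locus and no name or role.

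Intensities are deposited GC-RMA values on a linear scale in arbitrary units, and array medians ran from 11.5 to 12.0. Between 50.0% and 50.8% of the probe sets of an array lay under 12, so the lower bound falls at about the middle of each array, and no detection call accompanies the values. Levels under it were not shown to be above background. *HUB1* itself read 160.4, 169 and 212 in *hub1-2* arrays, against 38.9, 36.6 and 48.3 in *rdo2-1*, 45.7, 84.8 and 56.7 in *rdo3*, and 86.8, 80.9 and 67.8 in L*er*. It was higher in *hub1-2* than in L*er* (log2 difference 1.20, standard error 0.17, limma adjusted p = 0.0019), a call that was lost without *hub1-2* replicate 3 (adjusted p = 0.012). The *HUB1* transcript was thus not reduced in *hub1-2*, and its level does not check the mutant label. The seed storage albumin genes *SESA1*, *SESA2* and *SESA4* marked the tissue as maturing seed, with summed intensities of 73065 to 87063 in *hub1-2*, 96714 to 101593 in *rdo2-1*, 82561 to 87420 in *rdo3* and 77230 to 86380 in L*er*. *SESA1* was lower in *hub1-2* than in L*er* by a small step (log2 difference -0.20, adjusted p = 0.0091), a call lost without any 1 of the 6 arrays (adjusted p = 0.015 to 0.049). Against *rdo2-1* all 3 storage genes were called lower in *hub1-2*, with a median log2 difference of -0.35. Each of these calls was lost with quantile normalization (adjusted p = 0.053 to 0.14) and without at least 4 of the 6 arrays taken singly. *LHCA1*, a photosynthesis gene and the measured marker of green pod wall (1 of 6 listed), read 213 to 415 in *hub1-2* and 536 to 1051 in L*er*, with a log2 difference of -1.27 that missed the threshold (adjusted p = 0.014). Of the 4 phloem genes listed, 2 were measured, with sums of 1138 to 1216 in *hub1-2*, 1168 to 1480 in *rdo2-1*, 1921 to 2249 in *rdo3* and 1453 to 1828 in L*er*, and *SUC2*, a sucrose transporter gene, was lower in *hub1-2* than in L*er* (log2 difference -0.54, adjusted p = 0.0080), a call lost without any 1 array except L*er* replicate 2 (adjusted p = 0.021 to 0.038). Against *rdo3*, *SUC2* read 1070 to 1145 in *hub1-2* and 1854 to 2170 in *rdo3* (-0.85, adjusted p = 0.00042), a call held under every alternative run. *APL*, a phloem regulator gene, read 57.2 to 70.9 in *hub1-2* and 110 to 170 in *rdo2-1* (-0.99, adjusted p = 0.0058), a call lost without *hub1-2* replicate 1, 2 or 3 or *rdo2-1* replicate 1 (adjusted p = 0.015 to 0.029). The 2 measured anther and pollen genes lay under 15 in all arrays, the root markers *EXPA7* and *EXPA18* and the seed coat markers *BAN* and *AT3G50990* under 7, and no endosperm or defence marker was named among the probe sets used here. The part of these shifts in the results was not tested, and in whole siliques fewer cells of a type and less RNA per cell cannot be told apart.

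The 4 genes did not sit equally far from the bounds. Across the 9 arrays of the other genotypes they read 4.43 to 9.80, between the 12.3 and 46.5 percentile of the array, and in *hub1-2* they stood between the 59.6 and 81.1 percentile. *AT1G68240* and *AGAL1* cleared the upper bound widely, with lowest *hub1-2* values of 129 and 46.9, whereas *ALDH3F1* and *AT1G01920* lay just inside it at 24.4 and 25.8. Just outside, with every other array under 12, were *HMGB6*, a high mobility group gene, with a lowest *hub1-2* value of 19.3, *MAF5*, a relative of the flowering repressor *FLC*, with 19.1, and *AT3G15357* with 18.4. On the other bound, the members nearest to it were *AT1G68240* with a highest other array of 9.80, *AT1G01920* with 9.75 and *AGAL1* with 8.92. The closest outside were *AT2G39670* with 13.1, *AT4G37380* with 13.2 and *AT1G02110* with 13.4, whose lowest *hub1-2* values were 28.0, 24.4 and 71.6.

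**Figure D1:**
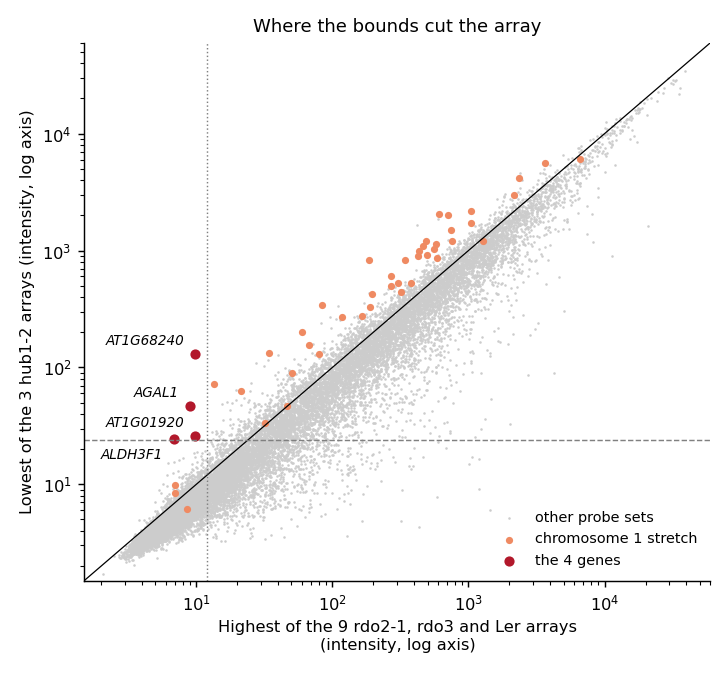
Each point is a probe set, with the highest of the 9 *rdo2-1*, *rdo3* and L*er* arrays on the horizontal axis and the lowest of the 3 *hub1-2* arrays on the vertical axis, both as intensities on log axes. The dotted line marks 12, the dashed line 24 and the solid line equality. The 4 genes lie above 24 and left of 12, and most of the orange genes of the chromosome 1 stretch lie above the solid line.

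The same bounds were rarely met in the other directions. With *rdo2-1* as the high genotype they chose 1 probe set, *QQS*, which read 135 to 320 there, 4.89 to 5.84 in *hub1-2*, 5.65 to 5.89 in *rdo3* and 6.14 to 7.11 in L*er*. With *rdo3* or L*er* as the high genotype they chose 0. The mirror pattern, under 12 in all *hub1-2* arrays and over 24 in all others, held for 1 probe set, *AT1G12030*, which read 4.38 to 6.70 in *hub1-2*, 37.8 to 44.3 in *rdo2-1*, 28.6 to 55.0 in *rdo3* and 34.7 to 47.5 in L*er*. Ranked by the ratio of the lowest *hub1-2* array to the highest other array among 14306 probe sets above a floor of 8 in at least 2 arrays, *AT1G68240* stood 1st, *AGAL1* 3rd, *ALDH3F1* 9th and *AT1G01920* 27th. All 4 members passed that floor.

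**Figure D2:**
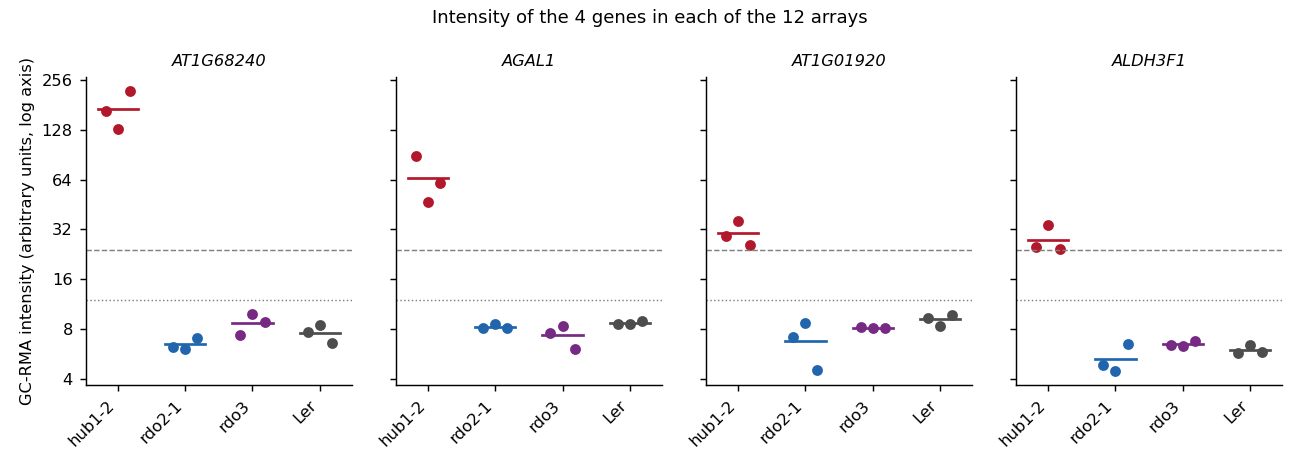
Intensity (log axis) of each of the 4 genes in the 3 arrays of *hub1-2*, *rdo2-1*, *rdo3* and L*er*, in order of replicate number, with horizontal bars at the group means. The dotted line marks 12 and the dashed line 24. *AT1G68240* reached 129 to 219.6 in *hub1-2*, and *ALDH3F1* came closest to the upper bound at 24.4.

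*AT1G68240* had the widest separation. Its intensity was 167, 129 and 219.6 in *hub1-2* siliques, against 6.24, 6.04 and 7.09 in *rdo2-1*, 7.33, 9.80 and 8.77 in *rdo3*, and 7.71, 8.43 and 6.55 in L*er*. The *hub1-2* arrays thus averaged 172 ± 45.5 (SD, n = 3), and L*er* averaged 7.56 ± 0.95 (SD, n = 3), a ratio of 22.7. The lowest *hub1-2* array was 13.2 times the highest of the other 9. On the log2 scale *hub1-2* lay 4.70 (standard error 0.21) above *rdo2-1*, 4.29 (0.21) above *rdo3* and 4.48 (0.22) above L*er*. The difference from L*er* was -0.22 in *rdo2-1* and 0.19 in *rdo3*. In *hub1-2* the gene stood between the 75.9 and 81.1 percentile of the array, and at or below the 46.5 percentile in the other 9 arrays. On a list of 3 genes drawn up with *AT1G68240*, for which the sources used here annotate no shared family, *AT1G10585* was also measured. It read 141, 97.2 and 312 in *hub1-2*, 32.7, 18.8 and 18.9 in *rdo2-1*, 400.0, 693 and 400.2 in *rdo3*, and 40.6, 66.2 and 52.7 in L*er*. It was higher in *hub1-2* than in *rdo2-1* (log2 difference 2.84, standard error 0.40, limma adjusted p = 0.00097), and its differences from *rdo3* (-1.56, adjusted p = 0.023) and L*er* (1.64, adjusted p = 0.017) missed the threshold.

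*AGAL1*, the alpha-galactosidase gene, read 89.4, 46.9 and 61.4 in *hub1-2*, against 8.05, 8.57 and 8.15 in *rdo2-1*, 7.56, 8.33 and 6.06 in *rdo3*, and 8.60, 8.55 and 8.92 in L*er*. It was the most variable of the 4 between *hub1-2* arrays, with a highest array 1.91 times the lowest and a mean of 65.9 ± 21.6 (SD, n = 3), against 8.69 ± 0.20 (SD, n = 3) in L*er*. All 3 *hub1-2* arrays lay far above the other 9, by at least 5.25 times. The log2 difference was 2.95 (standard error 0.23) against *rdo2-1*, 3.13 (0.24) against *rdo3* and 2.87 (0.23) against L*er*. The 3 *rdo3* arrays lay under the lowest L*er* array, but all of these values are in the range not shown to be above background.

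Alpha-galactosidases act on galactose-bearing sugars, among them the raffinose family oligosaccharides that seeds store while they dry. The neighbouring gene of the same family, *AGAL2*, has no named probe set, and the other measured gene of the alpha-galactosidase list, *AT3G56310*, read far over both bounds in every array. It read 1781, 1727 and 1738 in *hub1-2*, 1881, 1533 and 1715 in *rdo2-1*, 1703, 1478 and 1545 in *rdo3*, and 1648, 1763 and 1814 in L*er*, a log2 difference of 0.01 (standard error 0.08, limma adjusted p = 0.96). Of the 9 genes on a list of galactinol and raffinose enzymes, 4 were measured. Against L*er* 2 were higher in *hub1-2* and 0 lower, where 5.65% of all tested probe sets were called higher and 3.99% lower. All 4 were named only through the study's table of genes that differed in *hub1-2* or *rdo2-1* in these same arrays. The counts were therefore loaded towards calls in advance and carry no test. *GolS1*, whose product makes galactinol, the galactose donor for raffinose, read 3619, 3234 and 3151 in *hub1-2*, 2186, 2329 and 1431 in *rdo2-1*, 2273, 2008 and 2211 in *rdo3*, and 2125, 2149 and 1807 in L*er*. It was higher than in L*er* (log2 difference 0.72, standard error 0.10, adjusted p = 0.0016), than in *rdo3* (0.62, adjusted p = 0.0014) and than in *rdo2-1* (0.78, adjusted p = 0.0069). The call against *rdo3* was lost with all 12 arrays in 1 fit (adjusted p = 0.012), and that against *rdo2-1* with median centring (adjusted p = 0.017) and without *hub1-2* replicate 1, 2 or 3 or *rdo2-1* replicate 1 (adjusted p = 0.015 to 0.027).

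Across the raffinose list the comparisons differed. *DIN10*, annotated as a raffinose synthase gene, was called against L*er* (log2 difference 0.93, adjusted p = 0.0073) and lost the call without any 1 of the 6 arrays (adjusted p = 0.011 to 0.021) and with quantile normalization (adjusted p = 0.010). *STS*, the stachyose synthase gene, read 143, 151 and 202 in *hub1-2*, 44.2, 42.2 and 84.7 in *rdo2-1*, 68.7, 102 and 70.5 in *rdo3*, and 186, 106 and 182 in L*er*. It was higher in *hub1-2* than in *rdo2-1* (1.60, adjusted p = 0.0026) and *rdo3* (1.05, adjusted p = 0.0077), while *hub1-2* and L*er* overlapped (log2 difference 0.10, standard error 0.24, adjusted p = 0.81). The *STS* call against *rdo2-1* was lost without *hub1-2* replicate 3 or *rdo2-1* replicate 1 (adjusted p = 0.015 and 0.013), and that against *rdo3* without any 1 array except *rdo3* replicate 2 (adjusted p = 0.018 to 0.037) and with all 12 arrays in 1 fit (adjusted p = 0.023). *SIP2* had a log2 difference of 0.94 from L*er* that missed the threshold (adjusted p = 0.026) and passed it with CyberT (adjusted p = 0.0016). All measured genes of the list read far over 12 in every L*er* array, so none could meet the bounds that chose *AGAL1*.

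*ALDH3F1* lay closest to the upper bound. It read 25.0, 33.8 and 24.4 in *hub1-2*, against 4.87, 4.43 and 6.45 in *rdo2-1*, 6.42, 6.34 and 6.80 in *rdo3*, and 5.75, 6.41 and 5.80 in L*er*. The means were 27.7 ± 5.26 in *hub1-2* and 5.99 ± 0.37 in L*er* (SD, n = 3 each), and the lowest *hub1-2* array was 3.58 times the highest other array. The log2 difference was 2.40 (standard error 0.19) against *rdo2-1*, 2.07 (0.15) against *rdo3* and 2.20 (0.16) against L*er*. Its place on the edge shows in the rule itself, since with bounds of 15 and 30 it dropped out.

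Of the 14 genes whose symbol starts with *ALDH* in the RefSeq table, 8 others were measured, and their median log2 difference between *hub1-2* and L*er* was 0.01, beside 0.03 over all tested probe sets. Against L*er*, 1 was called higher and 0 lower, where 5.65% of all tested probe sets were called higher and 3.99% lower. *ALDH6B2*, whose enzyme acts on methylmalonate semialdehyde in amino acid breakdown, read 520.5, 493 and 584 in *hub1-2*, against 168, 162 and 203 in *rdo2-1*, 223, 259.6 and 229 in *rdo3*, and 260.0, 247 and 245 in L*er*. It was higher than in *rdo2-1* (log2 difference 1.59, adjusted p = 0.00016), *rdo3* (1.17, adjusted p = 0.00044) and L*er* (1.08, adjusted p = 0.00059), and its *hub1-2* arrays overlapped those of no other genotype. *ALDH3I1*, of the same family 3 as *ALDH3F1*, went the other way. It read 13.4, 10.2 and 8.20 in *hub1-2*, 23.5, 17.6 and 28.5 in *rdo2-1*, 17.2, 14.7 and 17.3 in *rdo3*, and 21.2, 16.1 and 27.8 in L*er*. It was lower in *hub1-2* than in *rdo2-1* (log2 difference -1.13, adjusted p = 0.0054), a call lost without *hub1-2* replicate 2 or 3 or *rdo2-1* replicate 1 or 3 (adjusted p = 0.014 to 0.027). Against *rdo3* (-0.65, adjusted p = 0.033) and L*er* (-1.02, adjusted p = 0.017) it missed the threshold. CyberT called both (adjusted p = 0.0064 against *rdo3* and 0.0014 against L*er*), and the difference from L*er* also passed with all 12 arrays in 1 fit (adjusted p = 0.0083) and without L*er* replicate 2 (adjusted p = 0.0082). Against *rdo2-1* the background was 12.2% of tested probe sets called higher and 7.83% lower, and against *rdo3* 6.64% higher and 4.86% lower. The remaining 6 measured *ALDH* genes were called in none of the 3 limma comparisons.

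**Figure D3:**
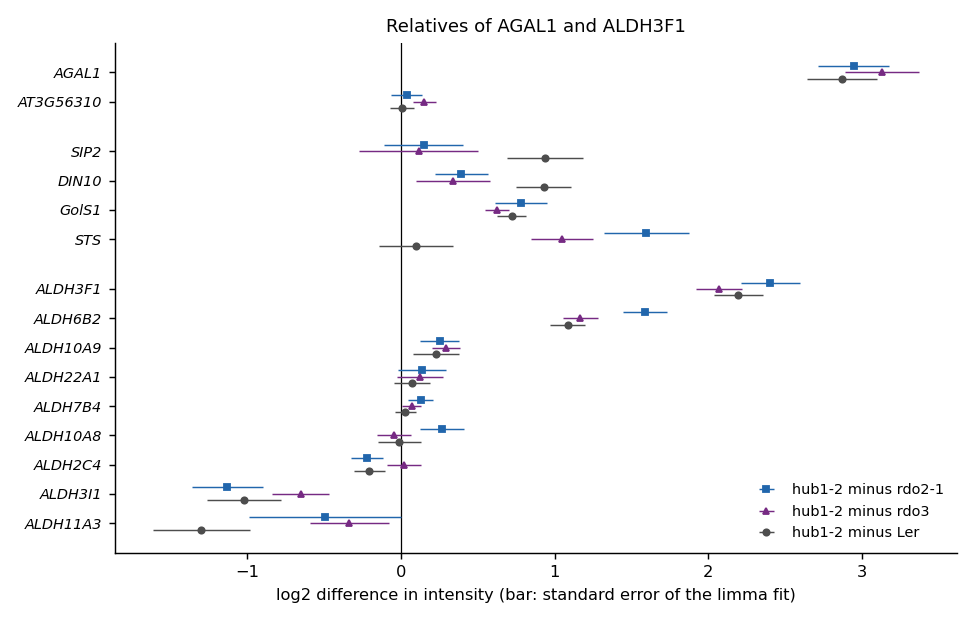
Log2 difference in intensity (horizontal axis) between *hub1-2* and *rdo2-1*, *rdo3* and L*er* for the measured genes of the alpha-galactosidase (top), raffinose (middle) and aldehyde dehydrogenase (bottom) lists, with the standard error of the limma fit as bars. *AGAL1* and *ALDH3F1* stand at 2.07 to 3.13, *ALDH6B2* at 1.08 to 1.59, and *AT3G56310* near 0.

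*AT1G01920* differed from the other 3 in its surroundings. It read 29.1, 35.9 and 25.8 in *hub1-2*, against 7.10, 8.73 and 4.52 in *rdo2-1*, 8.23, 8.06 and 8.12 in *rdo3*, and 9.34, 8.37 and 9.75 in L*er*. The means were 30.3 ± 5.17 in *hub1-2* and 9.15 ± 0.71 in L*er* (SD, n = 3 each), and the log2 difference was 2.20 (standard error 0.24) against *rdo2-1*, 1.88 (0.15) against *rdo3* and 1.71 (0.16) against L*er*. The lowest *hub1-2* array was 2.64 times the highest other array, the smallest such ratio of the 4 genes. The next gene on chromosome 1, *AT1G01930*, annotated as zinc finger-related, read 277, 294 and 269 in *hub1-2*, against 88.8, 115 and 97.4 in *rdo2-1*, 105, 105 and 103 in *rdo3*, and 118, 82.9 and 91.8 in L*er*. It was higher in *hub1-2* than in L*er* (log2 difference 1.54, standard error 0.16, limma adjusted p = 0.00052). Of the 8 genes next to the 4 members, 2 had a named probe set above the floor, *AT1G01930* and *AT1G68250* beside *AT1G68240*, whose difference was 0.20 (standard error 0.28, adjusted p = 0.64).

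Because of this neighbour, the 10 nearest measured genes on each side of every member were examined, in the gene order of the TAIR10.1 RefSeq annotation. Around *AT1G01920*, 19 of 20 were called higher in *hub1-2* than in L*er* and 0 lower, with a median log2 difference of 1.60 and a range of 0.55 to 2.68. Around *AT1G68240*, 2 of 20 were higher and 2 lower, with a median of 0.00. Around *AGAL1* the counts were 3 and 0 with a median of 0.22, and around *ALDH3F1* they were 3 and 3 with a median of -0.10. Of all tested probe sets, 5.65% were called higher in *hub1-2* than in L*er* and 3.99% lower. Measured genes include some named only through the study's table of differing genes, so these shares are not a matched background. Beside *AT1G68240* the higher genes were *AT1G68410*, annotated as related to protein phosphatases 2C (log2 difference 1.11), and *AT1G68070*, a RING finger gene (0.53), and the lower ones *AT1G68380* (-1.44) and *AT1G68470*, an exostosin family gene (-1.28). Beside *AGAL1* they were *scpl35*, a serine carboxypeptidase-like gene (1.92, adjusted p = 0.0001), *AT5G08305* (0.93) and *AT5G08450* (0.93). Beside *ALDH3F1*, *AT4G36010* (0.98), *AT4G36390* (0.94) and *AT4G36420* (0.85) were higher, and *ROT3*, a cytochrome P450 gene of brassinosteroid synthesis (-1.38), *AT4G35905* (-0.90) and *BGAL3*, a beta-galactosidase gene (-0.54), were lower. Of these 13 calls, 3 held without each array in turn, those of *AT1G68470*, *scpl35* and *BGAL3*, and 10 were lost without at least 1 (adjusted p = 0.010 to 0.036). Also near *ALDH3F1*, *MPK14*, a protein kinase gene and the measured one of a list of 4, missed the threshold against L*er* (1.13, adjusted p = 0.018).

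The difference of *AT1G01920* lay inside the range of its neighbours, and those of the other 3 genes lay above all of theirs. The bounds required a large difference of the members and not of their neighbours. A member standing above its neighbours is therefore partly a matter of the choice and carries no test.

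**Figure D4:**
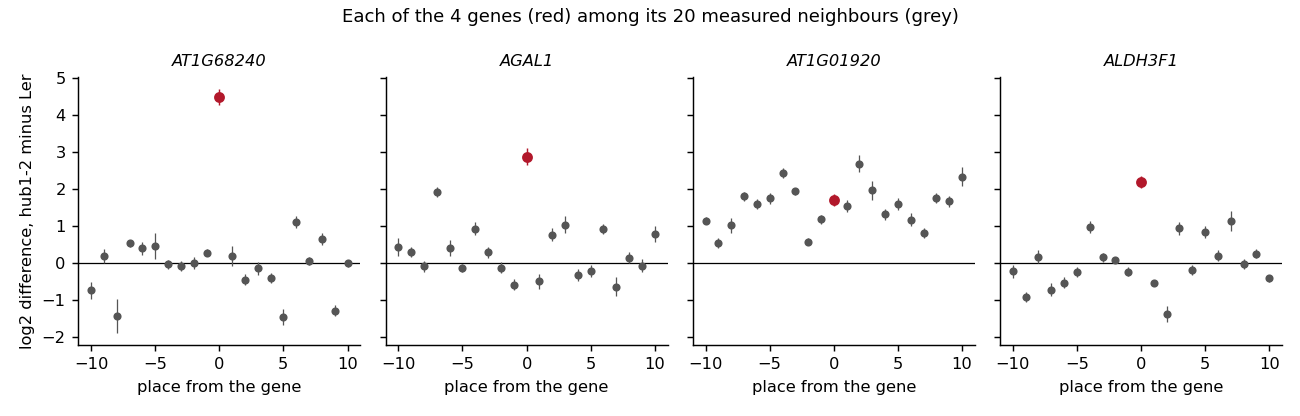
Log2 difference in intensity between *hub1-2* and L*er* (vertical axis, bars: standard error of the limma fit) for each of the 4 genes (red) and the 10 nearest measured genes on each side (grey), by place in gene order. The red point of *AT1G01920*, at 1.71, lies among its neighbours at 0.55 to 2.68, while *AT1G68240* at 4.48 has neighbours up to 1.11.

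The raised region was followed outwards from *AT1G01920* until 3 measured genes in a row were not called higher in *hub1-2* than in L*er*. It ran from *AT1G01640* to *AT1G02410*, where the annotation has 107 genes, 83 of them protein-coding, and 43 others besides *AT1G01920* were measured. Since its ends were set by the calls, the count within it, 41 of 43 higher, is a description. All 43 had a positive difference from L*er*, with a median of 1.53, which is 2.89 times in linear terms, and a middle range of 1.11 to 1.77. In 40 of the 43, all 3 *hub1-2* arrays lay above all 9 others, which held for 17.4% of all measured genes placed in the annotation. Against *rdo2-1*, 38 of the 43 were higher and 0 lower, and against *rdo3* 40 and 0, each with a median of 1.29. Over all tested probe sets, 12.2% were called higher and 7.83% lower against *rdo2-1*, and 6.64% and 4.86% against *rdo3*. The shares against L*er* were 5.65% and 3.99%. The 3 *hub1-2* arrays shared the shift, with medians over the 43 genes of 1.55, 1.45 and 1.48 above the L*er* mean for replicates 1, 2 and 3. The arrays of *rdo2-1*, *rdo3* and L*er* had medians from -0.09 to 0.13. The region contributed at least 42 of the 809 probe sets called higher in *hub1-2* than in L*er*, and at least 20 of the 65 whose lowest *hub1-2* array was over 2 times the highest other array. Of these 65, 58 had a gene name, and unnamed probe sets could not be placed.

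Runs of uncalled genes set the ends, so few calls just outside them are partly a matter of the choice. In the 10 measured genes before *AT1G01640*, 0 were called in either direction by limma, with a median log2 difference of 0.06, and the last of them, *AT1G01630*, was at 0.31 (standard error 0.16, adjusted p = 0.19), beside 2.01 (0.19) for *AT1G01640*. After *AT1G02410*, at 1.02, *AT1G02420* was at 0.89 (adjusted p = 0.030) and *AT1G02460* at -0.07, and in the 10 genes past the end 2 were called higher, *CLPP5* at 0.75 and *BXL2* at 2.19. When the 5 chromosomes were divided into 440 windows of 20 consecutive measured genes, the 2 highest medians, 1.56 and 1.53, were the neighbouring windows inside this region, and the next was 0.47, also on chromosome 1. In these 2 windows the median difference of *rdo2-1* from L*er* was 0.02 and 0.01, and that of *rdo3* was 0.08 and 0.07. Only RNA was measured.

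**Figure D5:**
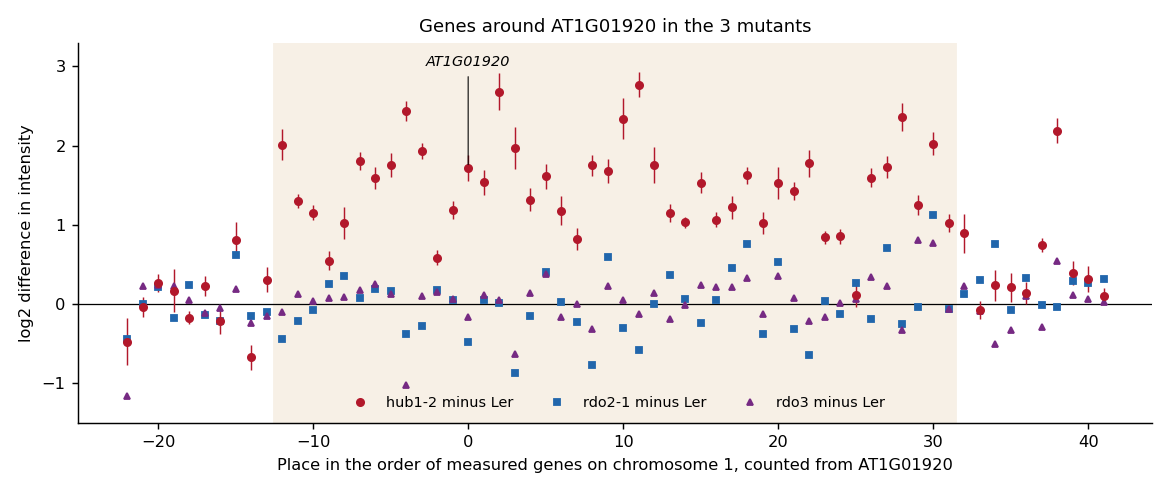
Log2 difference in intensity from L*er* (vertical axis) for *hub1-2* (circles, bars: standard error of the limma fit), *rdo2-1* (squares) and *rdo3* (triangles), for measured genes of chromosome 1 in gene order, counted from *AT1G01920*. Within the shaded region, from *AT1G01640* to *AT1G02410*, the *hub1-2* points have a median of 1.53, and outside it most lie near 0.

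The genes of the region have varied functions and levels, from L*er* means of 5.66 to 4639. *PEX11C*, a peroxin gene, read 2063, 2122 and 2057 in *hub1-2*, against 545, 601 and 489 in L*er*, and *TOC33*, for a receptor of protein import into chloroplasts, 1085, 1129 and 1130 against 413, 467 and 368. *MAGO*, for a subunit of the exon junction complex, read 4221, 4464 and 4197 in *hub1-2*, and 2074, 2168 and 2059 in L*er*. *FUS5*, a COP9 signalosome subunit gene, had a log2 difference of 1.68 (standard error 0.15), *MC1*, a metacaspase gene, of 1.22 (0.15), and *HFR1*, a light-signalling gene, of 1.73 (0.14). The largest difference was that of *AT1G02110*, annotated as proline-rich, at 2.77 (0.16). The 2 genes not called were *ATAF1*, a NAC transcription factor gene at 0.55 (0.12, adjusted p = 0.014), and *AT1G02320* at 0.12 (0.16, adjusted p = 0.63). *AT1G01920* was ordinary among them, with 15 of the 43 showing a larger difference from L*er*.

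*AT1G01920* was among the genes of the region that read under 12 on average in L*er*, with 5 others. Of these, *AT1G01840* reached 8.63 at most in *hub1-2*, *AT1G02060* 11.6 and *AT1G02320* 9.25, so they missed the upper bound. *AT1G02110* read 76.7, 71.6 and 88.1 in *hub1-2* and 10.7 to 12.9 in L*er*, but 13.4 in 1 *rdo3* array, and entered the group with bounds of 15 and 30. *GA2OX6*, whose enzyme inactivates gibberellin, the hormone that promotes germination, is the measured gene of the gibberellin inactivation list (1 of 7). It read 33.4, 38.5 and 33.9 in *hub1-2*, against 19.8, 32.1 and 10.4 in *rdo2-1*, 11.5, 18.3 and 15.2 in *rdo3*, and 7.85, 9.33 and 8.83 in L*er*. It was higher in *hub1-2* than in L*er* (log2 difference 2.03, standard error 0.14, adjusted p = 0.00011) and *rdo3* (1.26, adjusted p = 0.0025), and the difference from *rdo2-1*, 0.91 (0.34), missed the threshold (adjusted p = 0.064). The call against *rdo3* was lost without *hub1-2* replicate 1, 2 or 3 or *rdo3* replicate 3 (adjusted p = 0.010 to 0.014) and with all 12 arrays in 1 fit (adjusted p = 0.012), and the difference from *rdo2-1* passed without *rdo2-1* replicate 2 (adjusted p = 0.0079).

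The 4 genes varied among the *hub1-2* arrays without a shared order. Replicate 3 was the highest for *AT1G68240*, replicate 1 for *AGAL1* and replicate 2 for *AT1G01920* and *ALDH3F1*, and the lowest was replicate 2 for the first pair and replicate 3 for the second. The spread was 26.5% of the mean for *AT1G68240*, 32.8% for *AGAL1*, 17.1% for *AT1G01920* and 19.0% for *ALDH3F1*. The 4 genes lie on chromosomes 1, 5, 1 and 4, and none on chromosome 2, which carries *HUB1*.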

How the data were processed

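RNA of 12 silique samples was hybridized to Affymetrix ATH1 arrays. The authors made the deposited intensities with GC-RMA, which corrects background, normalizes arrays and summarizes probes, on a linear scale. No genome build is named for the probe design. Here the 64 controls were removed, log2 was taken without a pseudocount, and 14306 of 22746 probe sets with at least 8 in at least 2 arrays were tested with limma 3.58.1 (R 4.3.3, trended prior) over the 6 arrays of each comparison, with Benjamini-Hochberg adjustment over all of them and calls under 0.01. The fit was tested on simulated data. Genes were named by the array annotation, through RefSeq identifiers (7842 tested probe sets), or by the study's gene table (1129, among them *AGAL1*), and the other 5335 have no single name here. That table lists genes the study called different in *hub1-2* or *rdo2-1* in these same arrays. *GA2OX6*, *MPK14*, *ALDH3I1* and the measured raffinose genes were also named only through it. Counts of measured genes are therefore weighted towards called genes, beside shares taken over all tested probe sets. For a gene with several probe sets the brightest was used. The members and lists were chosen with earlier results of these data known. Every member is named, together with the probe sets nearest the bounds, *HUB1*, called genes of the lists of relatives and tissue markers, and, chosen after their values were seen, the called genes among the 10 measured on each side of *AT1G68240*, *AGAL1* and *ALDH3F1*. The raffinose and *ALDH* lists, the wider neighbourhoods and the chromosome 1 region were added after values had been seen, and the genes quoted from that region were picked for known functions. Other lists, which hold no member and no gene near one, are not described. With 3 arrays per genotype, their number limits the precision. Alternatives covered bounds, filters, a pseudocount of 16, scaling, all 12 arrays in 1 fit, CyberT (window 101, weight 10), a replicate block, and leaving out each array in turn. No genome sequence was used here.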

Additional observations from a re-analysis of the deposited data

Results flagged for a closer look

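Several genes near or related to the 4 members, or given as tissue markers, had all *hub1-2* arrays on 1 side of all L*er* arrays and all arrays of another mutant on the opposite side. The direct limma comparison of the 2 mutants is given for each. Neither *rdo2-1* nor *rdo3* was tested against L*er*, so these p-values do not test opposite effects. The share of all probe sets with this pattern was not counted. *AT1G01800*, a short-chain dehydrogenase gene 4 places before *AT1G01920*, read 836 to 1076 in *hub1-2*, 131 to 145 in *rdo2-1*, 82.1 to 95.3 in *rdo3* and 177 to 185 in L*er*, with log2 differences of 2.81 between *hub1-2* and *rdo2-1* (adjusted p = 2.8e-05) and 3.46 between *hub1-2* and *rdo3* (adjusted p = 7.9e-06). *AT1G01640*, at the first edge of the region, read 62.7 to 95.4 in *hub1-2*, 12.5 to 16.1 in *rdo2-1* and 17.6 to 21.2 in L*er* (2.45 between the mutants, adjusted p = 0.00011). *AT1G02110* read 71.6 to 88.1 in *hub1-2*, 6.71 to 9.62 in *rdo2-1* and 10.7 to 12.9 in L*er* (3.34, adjusted p = 2.8e-05). Its *rdo2-1* values lay under 12, in the range not shown to be above background, and its L*er* values lay around that bound. *ALDH6B2* read 493 to 584 in *hub1-2*, 162 to 203 in *rdo2-1* and 245 to 260.0 in L*er* (1.59, adjusted p = 0.00016). *AT1G10585* read 97.2 to 312 in *hub1-2*, 18.8 to 32.7 in *rdo2-1* and 40.6 to 66.2 in L*er* (2.84, adjusted p = 0.00097). *AT1G68380*, near *AT1G68240*, read 135 to 235 in *hub1-2*, 594 to 707 in *rdo2-1* and 399 to 547 in L*er* (-1.89, adjusted p = 0.00029). *AT1G68070*, also near it, read 498 to 512 in *hub1-2*, 309 to 329 in *rdo3* and 333 to 365 in L*er* (0.67, adjusted p = 0.0018). *SUC2* read 1070 to 1145 in *hub1-2*, 1854 to 2170 in *rdo3* and 1400 to 1773 in L*er* (-0.85, adjusted p = 0.00042). *HUB1* read 160 to 212 in *hub1-2*, 36.6 to 48.3 in *rdo2-1* and 67.8 to 86.8 in L*er* (2.13, adjusted p = 0.00012). With 3 arrays per group, no test for a single deviating array was made.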

How the results depend on the processing

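The group held 3 to 5 genes under every alternative run. Bounds of 15 and 30 gave 3, with *AT1G68240*, *AGAL1* and *AT1G02110*, quantile normalization dropped *ALDH3F1*, and leaving out L*er* replicate 1 added *DECOY*. The other alternatives kept the 4. Leaving out an array only removes a condition of the rule, so it could add genes but lose none. With log2(value + 16), the differences from L*er* were 2.97 for *AT1G68240*, 1.70 for *AGAL1*, 0.99 for *ALDH3F1* and 0.87 for *AT1G01920*. Calls numbered 1380 against L*er*, 2861 against *rdo2-1* and 1645 against *rdo3*. CyberT gave 2485 against L*er* and 2755 against *rdo3*. Leaving out 1 array gave 403 to 1387, 1122 to 2965 and 506 to 2353. The share of higher calls was 58.6%, 60.9% and 57.8%, and with median centring, which moved the median of all probe sets against *rdo2-1* to -0.10 beside 0.03, it was 48.4%, 41.6% and 46.8%. Lower calls thus outnumbered higher ones in all 3 comparisons with median centring, and against *rdo3* also without *hub1-2* replicate 2 or 3 (49.2% and 49.7% higher). The 43 genes of the chromosome 1 region gave 34 to 42 higher calls against L*er*, 34 to 39 against *rdo2-1* and 33 to 41 against *rdo3* over all alternatives. No alternative turned the sign of a called difference given for a relative, a tissue marker or *HUB1*. The sign for each member also held, but the bounds had in effect set it in advance. The cause of the other changes was not tested. Deviations of samples sharing a replicate number from their group means had correlations of -0.10, -0.07 and 0.07 against L*er*. They were 0.23, -0.05 and 0.06 against *rdo2-1*, and 0.13, -0.03 and -0.04 against *rdo3*. Samples with different numbers were not compared in this way, so these values do not settle whether the numbers pair samples. The main fits did not pair them, and the replicate block gave 899, 2801 and 976 calls. Under the block *DIN10*, *SUC2* and *SESA1* lost their calls against L*er* (adjusted p = 0.012, 0.013 and 0.019), as did 5 called neighbours (0.010 to 0.023), and *STS* that against *rdo3* (0.016). Signal near background limits the size of every fold change of the 4 genes.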
